A study of Mus musculus with 9 samples.

Results

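RING1B occupancy of the homeobox genes Six2 to Six6 and of Eya coactivator genes was compared between Eed+/+ and Eed-/- mouse embryonic stem cells (mESCs). The genes were Six2, Six3, Six4, Six5, Six6, Eya1, Eya2 and Eya4. Their peaks were all those that carried exactly 1 of these 8 names as nearest gene in a deposited peak list. This gave 12 of 4157 peaks, of which 5 were among the 2347 Eed+/+ peaks and 7 among the 1810 Eed-/- peaks.

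The series labels 9 samples, all of C57BL/6 embryonic stem cells grown in serum with leukemia inhibitory factor. They comprise 1 RING1B immunoprecipitate of wild-type (Eed+/+) cells, 3 numbered RING1B samples of cells that lack Eed, 3 input DNA samples of wild-type cells, and a CBX7 sample per genotype. Neither the CBX7 samples nor the input had a peak list that was analysed here. The numbered Eed-/- samples are lanes according to the study's methods and were called together. Each genotype thus has 1 list and no replicate error. No test between genotypes was therefore possible, and the intervals below cover counting error only. Mapped tags numbered 16814546 for Eed+/+ and 70343706 for Eed-/-, a depth 4.18 times as great in Eed-/- cells. Peak lists hold no expression values, so neither the cell type nor the absence of Eed could be checked from them.

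RING1B is the catalytic subunit of Polycomb repressive complex 1 (PRC1), which monoubiquitylates histone H2A. EED is a core subunit of PRC2, which methylates histone H3 at lysine 27, a mark that the CBX subunits of PRC1 can bind. SIX2 to SIX6 are homeodomain transcription factors. EYA proteins are coactivators with phosphatase activity that do not bind DNA by themselves and are brought to target genes by some of these factors. The network acts in the development of eye, ear, kidney and muscle, and many of its genes are repressed by Polycomb proteins in mESCs.

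Peaks of these genes mostly lay over sequence rich in CG dinucleotides. The 6 windows below are examples and not all sites of each kind. They show some of the sites that remained in Eed-/- cells (Six3, Six2, Eya2) and a site called in Eed+/+ cells alone (Six6). They also show the 2 genes with a site called in Eed-/- cells alone (Six5, Eya4). Each is 300 bp of the mm9 + strand, 5′ to 3′, centred on the peak summit, with CG in capitals.
Six3, Eed-/- peak, chr17:86020848-86021147: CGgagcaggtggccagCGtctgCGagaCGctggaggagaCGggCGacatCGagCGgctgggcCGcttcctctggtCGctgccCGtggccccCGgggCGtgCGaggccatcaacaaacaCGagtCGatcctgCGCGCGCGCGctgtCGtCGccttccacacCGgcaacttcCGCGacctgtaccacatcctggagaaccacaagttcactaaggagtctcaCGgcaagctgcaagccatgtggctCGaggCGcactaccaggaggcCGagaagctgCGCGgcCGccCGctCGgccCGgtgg
Six2, Eed-/- peak over the gene, chr17:86086711-86087010: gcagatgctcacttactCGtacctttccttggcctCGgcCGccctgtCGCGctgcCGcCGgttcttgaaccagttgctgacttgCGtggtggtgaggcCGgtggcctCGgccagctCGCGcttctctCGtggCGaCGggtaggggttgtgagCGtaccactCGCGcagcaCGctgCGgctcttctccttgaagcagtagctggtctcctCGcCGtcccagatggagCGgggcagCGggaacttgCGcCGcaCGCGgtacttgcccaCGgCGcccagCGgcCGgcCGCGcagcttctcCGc
Eya2, Eed-/- peak, chr2:165420441-165420740: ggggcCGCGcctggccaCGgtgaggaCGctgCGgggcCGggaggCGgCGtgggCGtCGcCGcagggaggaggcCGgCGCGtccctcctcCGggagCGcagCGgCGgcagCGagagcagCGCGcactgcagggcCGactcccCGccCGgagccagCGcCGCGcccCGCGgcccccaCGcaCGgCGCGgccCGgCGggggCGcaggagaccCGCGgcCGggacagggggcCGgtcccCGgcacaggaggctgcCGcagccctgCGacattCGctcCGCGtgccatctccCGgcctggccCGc
Six6, Eed+/+ peak, chr12:74042473-74042772: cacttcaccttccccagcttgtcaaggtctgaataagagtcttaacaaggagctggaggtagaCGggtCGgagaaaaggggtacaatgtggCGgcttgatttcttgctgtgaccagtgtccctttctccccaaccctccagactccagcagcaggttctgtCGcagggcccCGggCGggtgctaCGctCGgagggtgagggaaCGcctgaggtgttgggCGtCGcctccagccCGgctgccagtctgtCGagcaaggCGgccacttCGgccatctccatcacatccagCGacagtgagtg
Six5, Eed-/- peak, chr7:19680672-19680971: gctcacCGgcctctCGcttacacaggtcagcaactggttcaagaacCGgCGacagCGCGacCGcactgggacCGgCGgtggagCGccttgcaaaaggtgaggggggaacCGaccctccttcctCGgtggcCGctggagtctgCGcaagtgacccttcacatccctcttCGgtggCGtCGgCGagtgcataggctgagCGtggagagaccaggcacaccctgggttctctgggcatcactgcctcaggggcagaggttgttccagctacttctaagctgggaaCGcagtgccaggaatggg
Eya4, distal Eed-/- peak, chr10:23104571-23104870: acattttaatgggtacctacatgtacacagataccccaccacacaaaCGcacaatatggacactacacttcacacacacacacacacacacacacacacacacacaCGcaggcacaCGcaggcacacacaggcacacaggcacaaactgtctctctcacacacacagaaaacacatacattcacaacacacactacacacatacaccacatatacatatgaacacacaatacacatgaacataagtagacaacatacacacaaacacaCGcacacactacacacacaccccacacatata

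The Six3 window lay wholly in coding sequence and held 36 CG at 68.3% GC. The Six2 window was coding over 278 of its 300 bases and held 35 CG. The Eya2 window was intergenic and held 48 CG at 82.7% GC, above 97.3% of the windows of its list when ties were split. At the other end, the distal Eya4 window held 4 CG at 44.3% GC, at percentile 3.12 of the list. The Six6 window held 16 CG and the Six5 window 20. Among windows not printed, those of the other Eed-/- peaks that remained held 17 CG (upstream Six2) and 36 CG (Eya4 start site). The window of the distal Six2 site, called in Eed+/+ alone, held 25 CG. The printed windows thus do not compare CG content between sites that remained and sites called in 1 genotype. Over all summits the median was 26 CG in Eed+/+ and 28 in Eed-/-, and 99.7% and 99.1% of windows held at least 1 CG.

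Six3, a regulator of forebrain and eye development, lay under the widest RING1B peak of the whole Eed+/+ list. This peak, at chr17:86006833-86024983, spanned 18151 bp and held 2814 tags, and it ranked 1 of 2347 both by width and by tags. Its nearest gene in the list is Six3os1, the overlapping transcript on the opposite strand, so it is not among the 5 Eed+/+ peaks chosen by name, and Six3 has no Eed+/+ peak of its own name. Six3 itself occupies chr17:86012948-86031153 on the + strand (18206 bp, 3 annotated start sites). Immunoprecipitated DNA carries no strand, so occupancy of Six3 and of Six3os1 cannot be told apart where they overlap.

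The RING1B level, given here as tags per kb of peak per 1000000 mapped tags, was 9.22 over the Six3 domain in Eed+/+ cells (95% Poisson interval 8.88 to 9.57). In Eed-/- cells the same interval held 3 separate peaks, all wholly inside it. The first was at chr17:86011750-86015332 (level 1.155, interval 1.03 to 1.29, named Six3os1). The next was at chr17:86015616-86018302 (level 1.085, interval 0.941 to 1.24, named Six3os1). The last, named Six3, was at chr17:86019906-86022336 (level 1.48, interval 1.30 to 1.67). These peaks were separated by 283 and 1603 bp and covered 8701 bp, or 47.9% of the domain.

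The level in the Eed-/- Six3 peak was 6.23-fold lower than over the Eed+/+ domain (ratio 0.160, conditional exact interval 0.141 to 0.183). The Six3os1 peaks were 7.99-fold and 8.50-fold lower. The Six3 peak covered 809 bp of coding sequence, 397 bp of UTR and 1225 bp outside exons. It had the highest fold enrichment of the Eed-/- peaks chosen by name, 6.00, and was the only one with an FDR of 1% or less (0.44%). The summit of the Eed+/+ domain, at 86023122, lay 786 bp beyond the end of this peak, in a stretch with no Eed-/- call.

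Six2, which maintains the nephron progenitors of the kidney, lies on the same chromosome, with 52455 bp between the nearer ends of the genes and its domain 57461 bp from that of Six3. It is a 3987 bp gene at chr17:86083608-86087594 on the − strand. Its Eed+/+ peak, chr17:86082445-86092963, covered the whole gene and its upstream sequence over 10519 bp, with 1389 tags. The level was 7.85 (7.45 to 8.28) and the fold enrichment 46.21, rank 86 of 2347, while by width the peak ranked 23.

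In Eed-/- cells 2 peaks lay inside the Six2 domain. The peak over the gene, chr17:86084259-86087614, held 328 tags at a level of 1.39 (1.24 to 1.55), which was 5.65-fold below Eed+/+ (ratio 0.177, 0.156 to 0.200). The upstream peak, chr17:86089525-86092950, held 253 tags at a level of 1.05 (0.924 to 1.19), which was 7.48-fold below Eed+/+ (ratio 0.134, 0.116 to 0.153). Both ratios were taken against the mean of the whole Eed+/+ domain, so they differ only as the 2 Eed-/- levels do. The upstream level was the lower, and the intervals did not overlap. The Eed+/+ level of each part is not in the list, so the fall in level cannot be compared between the parts. Over the gene, the summits of the 2 genotypes were 12 bp apart, in the window printed above for Six2. The Eed-/- peaks covered 6782 bp (64.5%) of the domain and left a gap of 1910 bp.

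**Figure D1:**
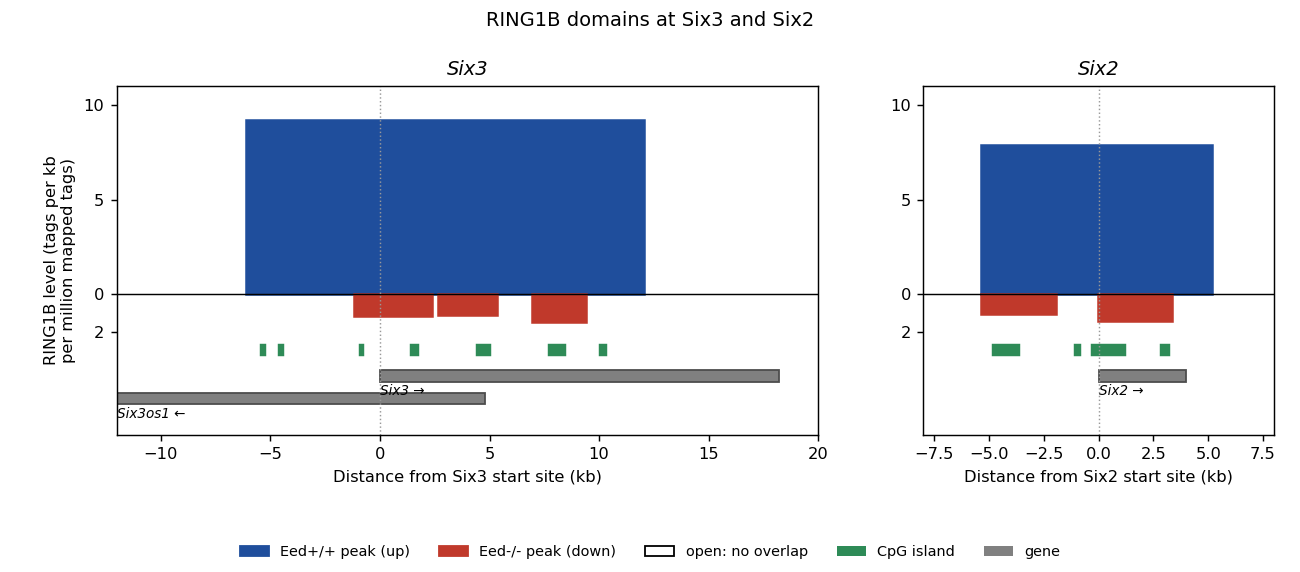
RING1B peaks at Six3 and Six2, plotted by distance from the gene's start site (kb, in the direction of the gene) and by level (tags per kb per 1000000 mapped tags), with Eed+/+ peaks drawn upward and Eed-/- peaks downward on the same scale, CpG islands in green and genes in grey with arrows for direction. Each Eed+/+ domain is a single tall block, at 9.22 and 7.85, above 3 low Eed-/- blocks at Six3 and 2 at Six2.

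Over the whole Eed+/+ list, peaks that overlapped several Eed-/- peaks were few. Of the 2347 Eed+/+ peaks, 68 overlapped 2 or more Eed-/- peaks and 9 overlapped 3 or more. These counts cover peaks of all widths (median 2665 bp) and were not made for wide domains alone, so they do not show how unusual the Six3 and Six2 domains are. All 30 Eed+/+ peaks of 10 kb or more were overlapped by an Eed-/- peak. Summed over its Eed-/- peaks, the Six3 domain held 749 tags, which corresponds to 179 at the Eed+/+ depth, against 2814 in Eed+/+. The Six2 domain held 581 tags, which corresponds to 139 at the Eed+/+ depth, against 1389. Eed-/- tags outside the called peaks are not in the list, so these sums are lower limits for the domains.

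The parts of both domains that stayed called in Eed-/- cells were the richer in CG. At Six3 the covered part held 46.4 CG per kb and the rest 29.5, and at Six2 the values were 48.7 and 38.8. The same held for all 30 domains of 10 kb or more, with medians of 54.3 and 28.2 CG per kb. CpG islands, defined by sequence as runs of at least 200 bp with 50% GC and an observed to expected CG ratio of 0.6 or more, numbered 7 in the Six3 domain, of which 4 were overlapped by an Eed-/- peak, and 4 in the Six2 domain, of which 3 were. Among all islands in these 30 domains 61.9% were overlapped (65 of 105). The island at the Eed+/+ summit of Six3, chr17:86022937-86023244, was among those that were not.

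A further Eed+/+ peak was assigned to Six2 across a gene-free stretch. It lay at chr17:86198870-86201116, 111276 bp upstream of the Six2 start site and 182888 bp from the next gene on the other side, Srbd1. It held 177 tags at a level of 4.68 (4.02 to 5.43) and a fold enrichment of 9.69, and contained 2 CpG islands. No Eed-/- peak overlapped it. The nearest gene need not be the gene such a site regulates.

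Six6, a close relative of Six3 that acts in eye and pituitary development, had a peak in Eed+/+ cells and none in Eed-/- cells. The gene lies at chr12:74040932-74045886 on the + strand. The Eed+/+ peak, chr12:74040542-74043077, ran across its start site and 825 bp CpG island, with 750 bp of coding sequence, and also overlapped the annotated gene 4930447C04Rik. It held 239 tags at a level of 5.60 (4.92 to 6.36) and a fold enrichment of 12.33, percentile 33.5 of its list. At the Eed-/- depth an equal level would have given 1000 tags, far above the 100 tags that a call required. No Eed-/- peak lay within 10 kb of the gene. A level below the calling threshold is not recorded, so it is known only that no peak was called.

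Six5, the gene that lies next to the myotonic dystrophy kinase gene, showed the reverse. It occupies chr7:19679893-19683694 on the + strand. Its Eed-/- peak, chr7:19679881-19683162, covered most of the gene, including 2157 bp of coding sequence, and overlapped a CpG island of 1418 bp at the start site. It held 257 tags at a level of 1.11 (0.981 to 1.26), a fold enrichment of 4.18 and an FDR of 1.55%. The nearest Eed+/+ peak, at Dmwd, was 27909 bp from the gene. The same level would have given 61.4 tags at the Eed+/+ depth, under the 100 that a call required. An equal level in Eed+/+ cells would therefore not have been called, and gain of RING1B at Six5 cannot be told apart from the difference in depth.

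Eya4, a coactivator gene linked to hearing and heart function, kept a peak at its start site. The gene spans 245728 bp at chr10:22823974-23069701 on the − strand. The Eed+/+ peak, chr10:23067788-23070962, held 292 tags at a level of 5.47 (4.86 to 6.13) and a fold enrichment of 20.11. The Eed-/- peak lay wholly inside it, at chr10:23068690-23070026, and held 104 tags at a level of 1.11 (0.904 to 1.34), 4.95-fold lower (ratio 0.202, 0.160 to 0.254). Both were largely outside exons, with 134 bp of UTR and no coding sequence. The Eed-/- peak was narrower at both edges and did not reach the smaller of the 2 islands under the Eed+/+ peak. Its 104 tags were close to the minimum of over 100 that a call required, and its FDR was 1.57%.

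An additional Eya4 peak was called in Eed-/- cells alone, at chr10:23103638-23104900, 33937 bp upstream of the start site. It held 132 tags at a level of 1.49 (1.24 to 1.76) and a fold enrichment of 4.98. This was the only one of the 12 peaks off a CpG island, with 10 CG in 1263 bp and 43.9% GC. The window printed above for this site held an unbroken CA repeat of 36 bp, whereas the longest run in the other 11 windows was 6 bp. Runs of 20 bp or more occurred in 1.82% of Eed-/- windows (33 of 1810) and 1.45% of Eed+/+ windows (34 of 2347), a measure added after the sequence had been read. At the Eed+/+ depth its level would have given 31.6 tags, again under the calling minimum.

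**Figure D2:**
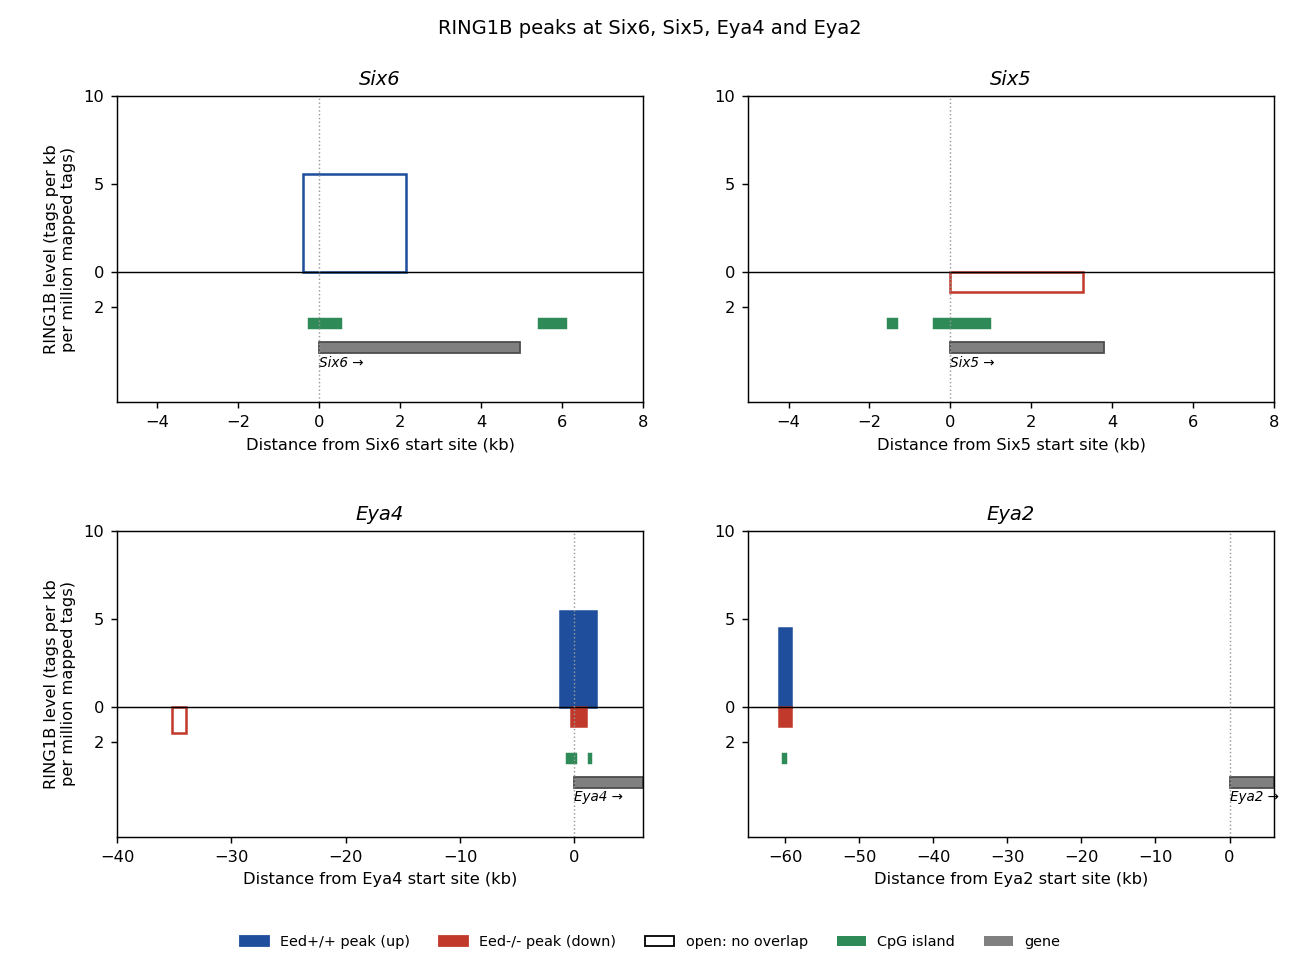
RING1B peaks at Six6, Six5, Eya4 and Eya2, plotted by distance from each gene's start site (kb, in the direction of the gene) and by level (tags per kb per 1000000 mapped tags), with Eed+/+ peaks upward, Eed-/- peaks downward, islands in green and genes in grey. Filled blocks overlap a peak of the other genotype, as at Eya4 and Eya2, and open blocks do not, as at Six6 (level 5.60), Six5 (1.11) and 33937 bp upstream of Eya4 (1.49).

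The peaks named for Eya2, another coactivator gene of the family, lay far from the gene. They were assigned to it only as the nearest gene, which, as for the distal Six2 and Eya4 sites, need not be the gene they regulate. The Eed+/+ peak, chr2:165420027-165421630, lay 59168 bp upstream of the gene (chr2:165480798-165597227, + strand) and 74609 bp from Slc2a10 on the other side, and overlapped no annotated exon. It held 120 tags at a level of 4.45 (3.69 to 5.32). The Eed-/- peak, chr2:165419910-165421606, held 130 tags at a level of 1.09 (0.910 to 1.29), 4.09-fold lower (ratio 0.245, 0.190 to 0.316). Of all sites assigned to the family, the outlines of the calls were closest here. The 2 calls shared 1580 bp, which was 98.5% of the Eed+/+ and 93.1% of the Eed-/- peak, and their summits were 101 bp apart. Both lay on a single 437 bp island with 78.5% GC, part of which is the window printed above for Eya2.

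Six4, a homeobox gene close in sequence to Six5, and Eya1, mutated in branchio-oto-renal syndrome, had no peak in either list. No peak of either list lay within 10 kb of either gene. For Eya1 the nearest peaks were 444618 bp away at Msc in Eed+/+ and 1175374 bp away at Slco5a1 in Eed-/-.

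Levels in Eed+/+ cells were ordered from the Six3 domain (9.22) and Six2 (7.85) through Six6 (5.60), Eya4 (5.47) and the distal Six2 site (4.68) to Eya2 (4.45). The intervals of the Six3 and Six2 domains overlapped neither each other nor any below them. From Six6 down, each site's interval overlapped that of its neighbours. In Eed-/- cells the 7 peaks lay between 1.05 at the upstream Six2 site and 1.49 at the distal Eya4 site. Neighbours in that order again overlapped, although the intervals at its ends did not. The lowest Eed+/+ interval began at 3.69, above the end of the highest Eed-/- interval at 1.76. Medians over the 5 and 7 peaks were 5.47 in Eed+/+ and 1.11 in Eed-/-, beside 4.80 and 1.32 over all peaks of each list. Both lists required the same minimum of raw tags, so at equal width a call needed a higher level in Eed+/+ cells. None of these Eed-/- peaks would have passed that minimum at the Eed+/+ depth. Six6 and the distal Six2 site were called in Eed+/+ alone, and Six5 and the distal Eya4 site in Eed-/- alone. The gap and the medians thus reflect the calling minimum as well as occupancy, and do not measure a loss at shared sites.

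**Figure D3:**
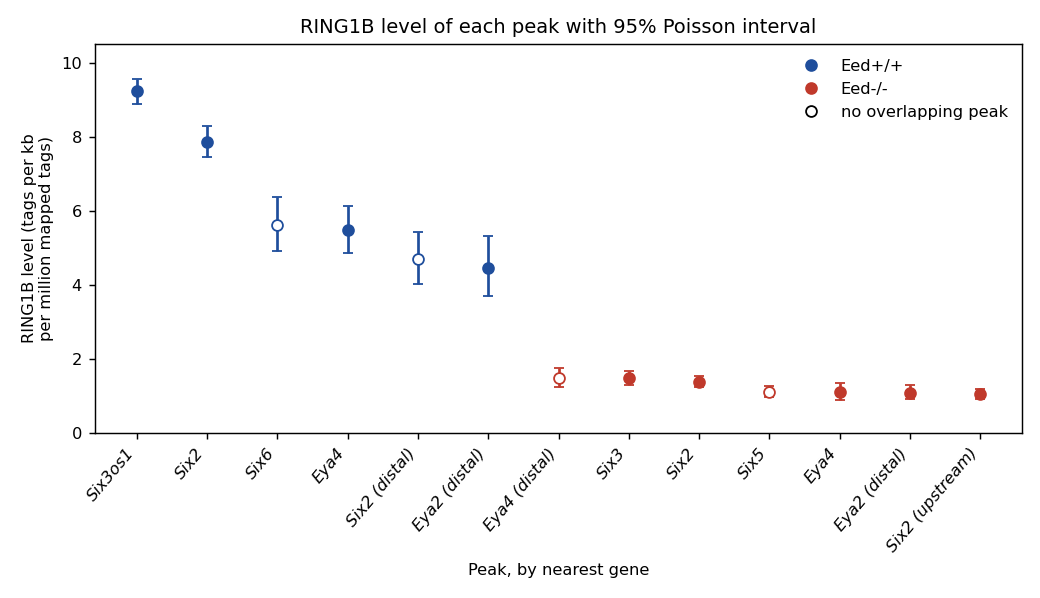
RING1B level (tags per kb per 1000000 mapped tags) of the 12 peaks chosen by name and the Eed+/+ Six3os1 domain, with points for peaks, bars for 95% Poisson intervals, Eed+/+ in blue, Eed-/- in red, and open points for peaks without an overlapping peak. The Eed+/+ points descend from 9.22 to 4.45, whereas the Eed-/- points lie between 1.05 and 1.49. Points of the genotypes are partly different sites, called with the same minimum of raw tags at unlike depths.

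Without scaling for depth the Eya genes differed little. The Eed-/- to Eed+/+ ratio of raw tags per kb was 1.02 at Eya2 and 0.846 at Eya4. It was 0.559 at Six2 (upstream peak) and 0.524 at the Six3 domain (with a Six3os1 peak), so there the Eed-/- value was lower even unscaled. The scaled ratios were ranked among all 1247 overlapped Eed+/+ peaks, taking for each the Eed-/- peak that shared most bases with it. On this rule, the Six3 domain (with a Six3os1 peak) lay at percentile 3.05, Six2 (upstream peak) at 5.45, Eya4 at 37.9 and Eya2 at 58.3. The other Eed-/- peaks inside the domains were not chosen by this rule but were set against the same 1247 ratios. Among them, the Six2 peak over the gene lay at percentile 24.3, the Six3 peak at 16.5 and the remaining Six3os1 peak at 1.36. The percentiles compare pairs of unlike width. On the rule, the Eed-/- peak was 0.197 times as wide as the Eed+/+ peak at the Six3 domain, 0.326 at Six2, 0.421 at Eya4 and 1.06 at Eya2. The size of the difference between genotypes depended on the mapped tag totals, whereas the rank of a ratio among the pairs did not. None of the 7 Eed-/- peaks would have exceeded 100 tags at the Eed+/+ depth, where they would have held 24.9 to 78.4 tags. In the whole Eed-/- list 6.63% of peaks would have (120 of 1810).

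By nearest gene name, 4 of the 8 had a peak in Eed+/+ (Six2, Six6, Eya2, Eya4), 5 had one in Eed-/- (Six2, Six3, Six5, Eya2, Eya4) and 3 had one in both. Position gives another picture, since Six3 had 1 Eed+/+ peak in the gene, under the name Six3os1. No peak of either list lay within 10 kb of Eya2. Over the whole lists 61.4% of Eed+/+ genes and 74.3% of Eed-/- genes were in the other list. By peak, 3 of 5 Eed+/+ peaks (60%, exact binomial interval 14.7 to 94.7%) were overlapped by an Eed-/- peak, against a background of 53.1% of the list. In the other direction 5 of 7 Eed-/- peaks were overlapped (71.4%, 29.0 to 96.3%), against 73.1%. These shares were near those of the lists, and nothing particular to these 8 genes was seen in them. Of the 5 overlapped Eed-/- peaks 4 lay wholly inside an Eed+/+ peak, beside 59.4% of the overlapped peaks of that list. Of all 7 this was 57.1% (18.4 to 90.1%), beside 43.4% of the whole list. None of the 3 overlapped Eed+/+ peaks lay inside an Eed-/- peak, beside 10.3%. An FDR of 1% or less was reached by 1 of 7 Eed-/- peaks, beside 24.1%, and by 5 of 5 Eed+/+ peaks, beside 99.9%.

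All 5 Eed+/+ peaks and 6 of 7 Eed-/- peaks were on a CpG island, beside 94.2% and 95.2% of the lists. Fewer were close to a start site. Of the Eed+/+ peaks 3 of 5 lay within 1 kb of one (60%, 14.7 to 94.7%), beside 79.3%, and of the Eed-/- peaks 4 of 7 (57.1%, 18.4 to 90.1%), beside 82.9%. The intervals of both shares include the list value. The peaks summed to 20081 bp in Eed+/+ cells, and in Eed-/- cells to 16792 bp. Counting peaks by position, within 10 kb of a gene of the list, added the Six3 domain, dropped the distal Six2 and Eya2 peaks, and changed the Eed+/+ sum to 34381 bp over 4 peaks.

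**Figure D4:**
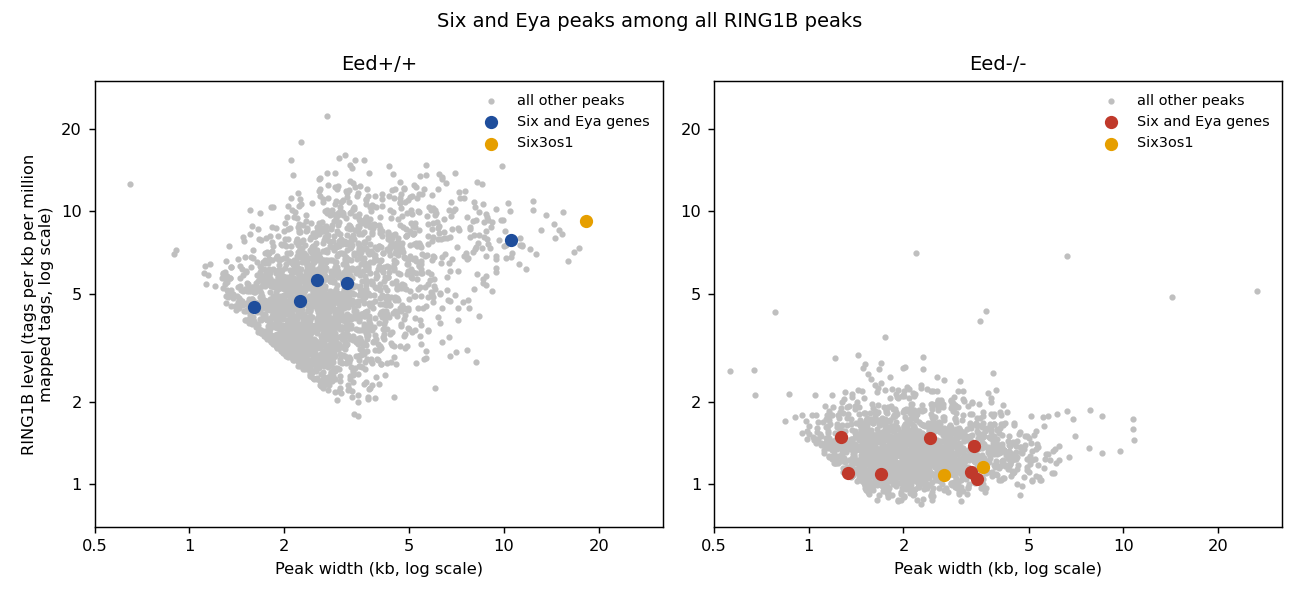
Peak width (kb, log scale) against RING1B level (tags per kb per 1000000 mapped tags, log scale) for all 2347 Eed+/+ peaks (left) and 1810 Eed-/- peaks (right), with the peaks of Six2 to Six6 and the Eya genes (blue or red) and of Six3os1 (orange) in colour. The Six3os1 peak is the widest Eed+/+ point at 18151 bp, the widest Eed-/- peak of these genes, at Six2, spanned 3426 bp, and the slanted lower left edge of each cloud is the minimum of more than 100 tags.

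Other genes of the Pax-Six-Eya-Dach network were counted in the same way. These 33 further genes were chosen with earlier results of these data known, so their shares are descriptive and do not test the network. Of them 23 had a peak in Eed+/+, 20 in Eed-/- and 19 in both. The 19 are to be read out of 23 beside 61.4% of all Eed+/+ genes, and out of 20 beside 74.3% of all Eed-/- genes. Of their 43 Eed+/+ peaks 22 were overlapped (51.2%), and of their 35 Eed-/- peaks 33 were (94.3%), beside 53.1% and 73.1% of all peaks. The highest fold enrichment in Eed+/+ was at Pax3, a regulator of neural crest and muscle progenitors (66.90), and the lowest among each gene's best peaks was at Myod1, the muscle determination factor (10.19). In Eed-/- the highest was at Hoxd11, a limb and kidney patterning gene (9.45), and the lowest at Pax1, which acts in the sclerotome (4.06).

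Of these 33 genes 4 had peaks in Eed+/+ alone. They were Pax8 of the kidney and thyroid (level 5.08), the GDNF receptor gene Ret (3.94), the early kidney gene Osr1 (6.13, the higher of 2 peaks) and Myod1 (2.96). Sall1, a zinc finger gene of the kidney, had a peak in Eed-/- alone, at a level of 0.954. The remaining 9, Eya3, Dach2, Myf5, Myog, Mitf, Atoh7, Fgf10, Tle1 and Tle4, had none.

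Genes most alike in RING1B pattern were found by Euclidean distance over 6 standardised values (number of peaks, summed width and highest level in each genotype) among 1179 genes with peaks in both lists. Nearest to Six2 were Elfn1 (distance 0.518) and Msx1 (0.732), each with 2 peaks in either list, and with highest levels of 8.74 and 7.61 in Eed+/+ against 1.34 and 1.45 in Eed-/-. Nearest to Eya2 were Slco3a1 (0.336) and Rftn1 (0.392), with 1 peak in either list. Nearest to Eya4 were Ptch1 (0.576) and Spnb3 (0.886), with 1 Eed+/+ and 2 Eed-/- peaks. The points compared share 2 libraries, and the distances describe these lists only.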

How the data were processed

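Chromatin of Eed+/+ and Eed-/- mESCs was immunoprecipitated for RING1B and sequenced from single ends. Alignment by the authors used bowtie on mm9 with uniquely placed tags, and MACS peaks were kept under a limit on FDR if they held over 100 tags. Versions, and which library served as MACS control: not given in the sources used here. The deposited lists give, per peak, its coordinates, raw tag counts, summit, fold enrichment ratio over background, FDR in percent, a p-value score and the nearest gene. The authors' overlap columns were not used. Mapped tag totals are those stated with the study's methods.

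An overlap of 1 bp or more counted. Levels carry exact Poisson intervals and ratios conditional exact binomial intervals, at 95%, for counting error only. With 1 list per genotype no test was run. CpG islands (score of 17 per CG and −1 otherwise, kept at 200 bp, 50% GC and observed to expected 0.6), start sites and sequences came from NCBIM37 and GENCODE M1, the same build. Sequence windows were moved off annotated UTRs where needed. Named were all 8 genes, network genes of highest or lowest fold enrichment or with peaks in 1 list, and the 2 genes most alike. A result at a further locus is not reported here. The genes, lists and rules were chosen with earlier results of these data known. Overlap and island code was tested on simulated data. Alternatives were the FDR, depth, position, overlap, scaling, island and distance choices of the closing section. Python 3.11.15, numpy 2.4.6, scipy 1.17.1, numba 0.67.0 and matplotlib 3.10.9 were used.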

Additional observations from a re-analysis of the deposited data

How the results depend on the processing

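Of 27 alternatives 12 moved a count or width by over 1.5 times, or the ratio beyond its counting interval at the median pair, and the other 15 moved it by less or not at all. Where both lists were limited to an FDR of at most 1%, 0 of the Eed+/+ peaks were overlapped in place of 3, the Eed-/- peaks fell from 7 to 1, of which 1 was overlapped, and their summed width went from 16792 to 2431 bp. Requiring over 100 Eed-/- tags at the Eed+/+ depth left 0 Eed-/- peaks and so 0 overlapped in either list, and gave no ratio, because no pair remained. An overlap of 50% of both peaks left 1 overlapped peak in each list, at Eya2. Assignment by position within 10 kb changed the Eed+/+ summed width from 20081 to 34381 bp, with the Six3 domain added and the distal Six2 and Eya2 peaks dropped. The median Eed-/- to Eed+/+ ratio over 3 pairs was 0.202, and became 0.846 with raw tags per kb and 0.28 with the deposited fold enrichment. Adding the Six3 domain, an alternative chosen after seeing the data, gave a scaled median of 0.168. Fold enrichment did not move all pairs the same way. The ratio rose from 0.202 to 0.28 at Eya4 and from 0.245 to 0.337 at Eya2. It fell for every Eed-/- peak inside the Six2 and Six3 domains, as from 0.177 to 0.128 over the Six2 gene and from 0.160 to 0.0985 at the Six3 peak. At equal width, the minimum of raw tags required a higher level for a call in Eed+/+ than in Eed-/-. The limit on FDR applied as well, and the median FDR was 1.46% over the Eed-/- list and 0% over the Eed+/+ list. Which limit left a site uncalled was not tested. No paired analysis was possible because each genotype has 1 peak list, with no values for the numbered samples.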
